A study of Mus musculus with 6 samples.

Results

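The genes described here are 36 genes of homologous recombination and of the Fanconi pathway, which together repair broken and cross-linked DNA. They were found by symbol in the deposited count matrix, and all 36 were among its 11922 genes and among the 11759 genes that passed a filter on low counts. The list covers the Fanconi core complex (8 genes), the FANCI and FANCD2 pair with its conjugating enzyme (3), BRCA1, BRCA2 and their partners (5), paralogs of the strand-exchange recombinase (5), helpers of that recombinase (3), break sensing and end resection (5), the processing of joint molecules (6) and Rad18.

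Splenic CD8+ T cells of 3 C57BL6/J donor mice were activated with anti-CD3/anti-CD28 beads and cultured until day 7 with interleukin-2 (100 units per ml). Water was the vehicle in 3 cultures, and the other 3 received 0.25 mM AOA. AOA (aminoxyacetic acid) inhibits enzymes that need PLP, the active form of vitamin B6. Each mouse supplied a vehicle-treated and an AOA-treated culture, and libraries are numbered by mouse. The comparison asked how inhibition of PLP-dependent enzymes changes gene expression in activated T cells.

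Total counts had a median of 15244646 (12881962 to 18934869) in vehicle libraries and 19546478 (18696114 to 21997078) in AOA libraries. No replicates agreed within sampling noise. The chi-square statistic per gene was 10.03 between vehicle replicates 1 and 3, 10.5 between AOA replicates 2 and 3, and 55.2 to 70.9 for every pair that included vehicle replicate 2 or AOA replicate 1. These 2 libraries therefore stood apart, and values without them are given where they change a call. The 5 CD8 T cell markers (Cd8a, Cd8b1, Cd3e, Cd3d, Cd3g) summed to 2907 to 3736 CPM (counts scaled to a library size of 1e6) with vehicle and 3994 to 4644 CPM with AOA. Within that sum Cd8a and Cd8b1 were raised with AOA (log2 fold change 1.03 and 0.64, edgeR test below). Cd3e, Cd3d and Cd3g were not called (-0.27, -0.13 and -0.31). Markers of other cells were far lower and moved with the groups: 4 of 4 B cell markers summed to 12.6 to 16.6 and 22.6 to 30.7 CPM, 3 of 5 myeloid markers to 55.2 to 66.5 and 4.18 to 7.77 CPM, 3 of 3 CD4 T cell markers to 82.2 to 137 and 21.7 to 31.3 CPM, and 2 of 3 NK cell markers to 20.1 to 114 and 3.53 to 11.6 CPM, in vehicle and AOA libraries respectively. Of these, Lyz2 and Ncr1 were at 0 in vehicle replicates 1 and 3, and 0 of 4 erythroid markers were among the genes of the matrix. The part of these cells in the results below was not tested. In bulk RNA, more cells that express a gene and more RNA of that gene per cell cannot be told apart.

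In homologous recombination, a broken DNA end is cut back to a single strand, coated with recombinase by BRCA2 and its partners, and paired with the sister copy, which serves as template. The Fanconi pathway detects strands that are chemically joined to each other, attaches ubiquitin to FANCD2 and FANCI at the stalled fork, and passes the opened lesion to the same recombination enzymes. Both routes work mainly in S and G2 phase, when a sister copy exists, and a dividing T cell uses them to finish replication.

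AOA-treated CD8+ T cells had more RNA from most of these genes. Summed over the 36 genes, vehicle replicates 1, 2 and 3 held 633, 653 and 657 CPM and AOA replicates 1, 2 and 3 held 1451, 1468 and 1557 CPM, so every AOA library lay above every vehicle library. Groups were compared by edgeR's quasi-likelihood test, with p-values adjusted over all genes tested by Benjamini-Hochberg. At an adjusted p under 0.05, 26 of the 36 were raised, 0 were lowered and 10 were not called, where 53.0% of all genes tested were called, 26.2% raised and 26.8% lowered. At an unadjusted p under 0.05, 1 gene (Fance) was lowered, while DESeq2 and limma also called 0 lowered. Without vehicle replicate 2 the calls were 29 raised and 1 lowered, again Fance, and without AOA replicate 1 they were 26 and 0. At least a 2-fold rise was called for 21 genes, against 12.1% of all genes. The median log2 fold change (AOA relative to vehicle) was 1.32 for the 36 genes and -0.02 for all genes tested. All 3 AOA libraries lay above all 3 vehicle libraries for 30 genes, against 31.0% of all genes, and 1 gene, Rad51d, showed the opposite order, against 31.1% of all genes. Within mice, 31 of the 36 were higher in the AOA culture of all 3 animals, against 35.8% of all genes.

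**Figure D1:**
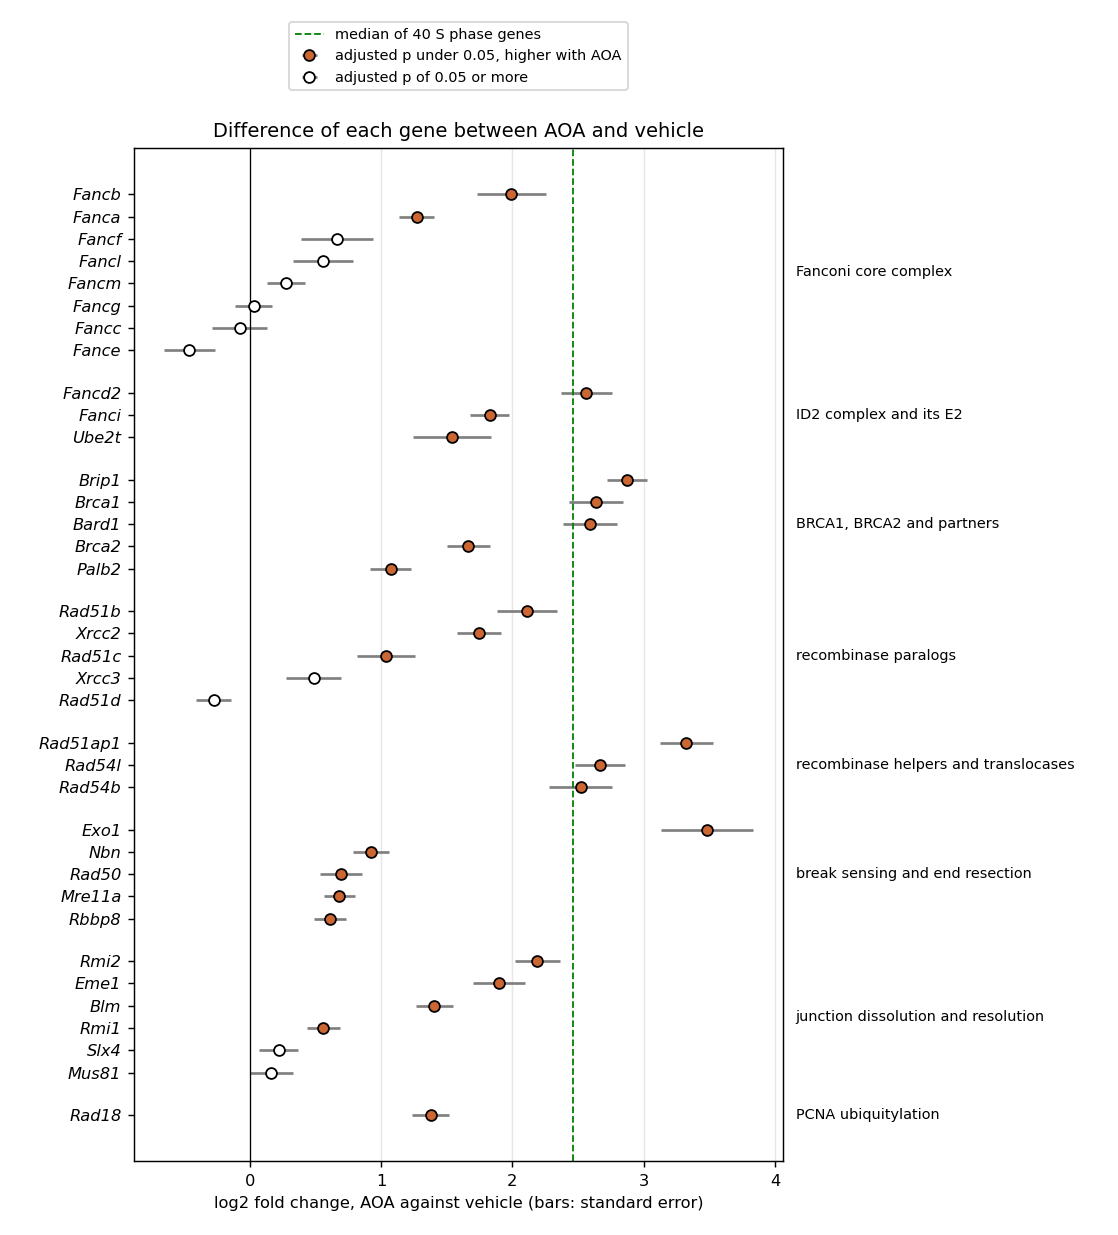
Log2 fold change of AOA-treated relative to vehicle-treated cells for the 36 genes, grouped by role, with bars for the standard error, filled points for an edgeR adjusted p under 0.05 and a dashed line at the median of 40 S-phase genes (2.46), from 3 libraries per group. Called rises run from 0.56 to 3.48, and the 10 genes that were not called lie between -0.46 and 0.67, with 6 of the 10 in the Fanconi core.

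The Fanconi core complex is the ubiquitin ligase of the pathway, and 2 of its 8 genes rose, Fanca and Fancb, against 26.2% raised among all genes tested, with a median log2 fold change of 0.42 over the 8. Without vehicle replicate 2 the count was 4. Fanca, a scaffold subunit of the complex, had 13.1, 12.9 and 12.97 CPM in vehicle replicates 1, 2 and 3 and 31.8, 30.5 and 31.9 CPM in AOA replicates 1, 2 and 3. Fancb, an X-linked subunit that holds the catalytic module together, had 4.52, 4.06 and 3.04 CPM with vehicle and 20.3, 12.7 and 12.96 CPM with AOA. For both genes the groups were clearly apart, and AOA replicate 1 was the highest library for Fancb. Fanca rose by 1.27 on the log2 scale (SE 0.14, adjusted p = 1.09e-04) and Fancb by 1.99 (SE 0.26, adjusted p = 3.20e-04, edgeR), or 1.74 without AOA replicate 1.

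The other 6 core genes did not pass the edgeR test. Fancl, the subunit with ligase activity, had 16.0, 10.97 and 18.8 CPM with vehicle and 27.2, 19.0 and 21.2 CPM with AOA, and the AOA libraries lay just above the vehicle libraries. Its log2 fold change was 0.56 (SE 0.23, adjusted p = 0.0640, edgeR), and with the mouse as a replicate block it was 0.57 with an adjusted p of 0.0267. Fancl also passed in unpaired fits, by DESeq2, with total counts, with no filter and without vehicle replicate 3. Its call thus rested on the method and the libraries used. Without AOA replicate 1 its log2 fold change was 0.40 (adjusted p = 0.210, edgeR). Fancf, an adaptor between subcomplexes, had 3.02, 4.06 and 2.39 CPM with vehicle and 5.38, 5.18 and 4.44 CPM with AOA (log2 fold change 0.67, SE 0.27, adjusted p = 0.0655, edgeR), and without vehicle replicate 2 its value was 0.93 (adjusted p = 0.0108). Fancm, the translocase that anchors the complex to DNA, had 19.9, 23.1 and 19.4 CPM against 23.8, 25.8 and 26.0 CPM (0.28, SE 0.14, adjusted p = 0.136, edgeR), and 0.39 without vehicle replicate 2 (adjusted p = 0.0393). In both genes the groups did not overlap, although the gaps were small.

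For the remaining core genes the groups overlapped. Fance, which links the core to FANCD2, had 22.1, 14.1 and 20.6 CPM with vehicle and 14.1, 12.9 and 14.3 CPM with AOA, with vehicle replicate 2 inside the AOA range (log2 fold change -0.46, SE 0.20, adjusted p = 0.0746, edgeR). Without that library it was -0.60 with an adjusted p of 0.00806. Fancc, the partner of FANCE, had 7.14, 10.8 and 8.96 CPM with vehicle and 8.55, 8.56 and 8.42 CPM with AOA (log2 fold change -0.08, 95% interval -0.54 to 0.39, and 0.11 without vehicle replicate 2). Fancg, which binds FANCA, had 23.9, 26.3 and 24.8 CPM with vehicle and 23.6, 25.5 and 27.5 CPM with AOA (0.03, 95% interval -0.28 to 0.34). For both genes a change within these intervals could not be told from 0.

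All 3 genes of the ubiquitylated pair and its enzyme rose, against 26.2% raised among all genes tested. Fancd2, which marks the cross-linked site once ubiquitin is attached, had 8.09, 7.61 and 10.2 CPM with vehicle and 40.5, 54.0 and 58.9 CPM with AOA. The lowest AOA library was AOA replicate 1, still well above all vehicle libraries. Fancd2 rose 5.91-fold (log2 fold change 2.56, SE 0.20, adjusted p = 2.20e-05, edgeR). Fanci, its partner, had 17.1, 19.4 and 21.7 CPM with vehicle and 64.7, 65.5 and 76.5 CPM with AOA, a 3.55-fold rise (1.83, SE 0.15, adjusted p = 2.87e-05, edgeR). Ube2t, the conjugating enzyme that works with FANCL, had 9.36, 4.69 and 7.54 CPM with vehicle and 27.9, 15.8 and 18.9 CPM with AOA. Here both groups were spread, with vehicle replicate 2 lowest and AOA replicate 1 highest, but they did not overlap. Ube2t rose 2.91-fold (1.54, SE 0.30, adjusted p = 0.00220, edgeR), and by 1.27 on the log2 scale without AOA replicate 1 (adjusted p = 0.0147).

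**Figure D2:**
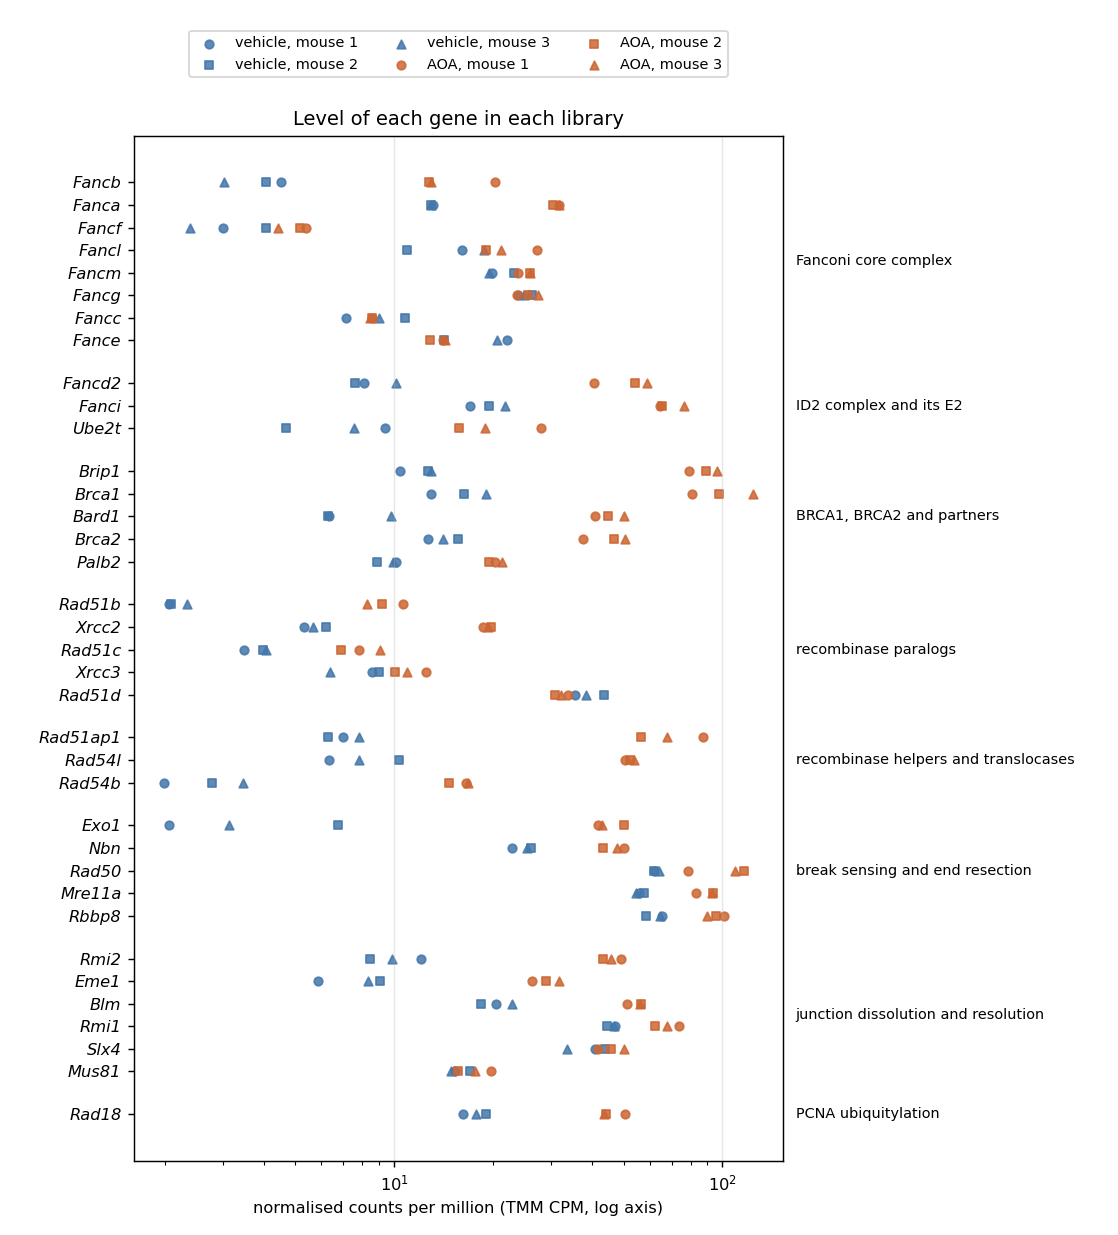
CPM of each gene in the 3 vehicle and 3 AOA libraries on a log axis, grouped by role, 1 point per library. For Brip1 the AOA points (79.2 to 96.4 CPM) are far above the vehicle points (10.4 to 12.9 CPM), whereas for Fancg the points of both groups mix (23.6 to 27.5 CPM).

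BRCA1 and BRCA2 and their partners load the recombinase onto resected DNA. All 5 genes rose, against 26.2% raised among all genes tested, with a median log2 fold change of 2.59. Brip1, a helicase that binds BRCA1 (chromosome 11, 86058136 to 86201215 in GRCm38), had 10.4, 12.7 and 12.9 CPM with vehicle and 79.2, 88.9 and 96.4 CPM with AOA. Brca1, a ubiquitin ligase that promotes resection (chromosome 11, 101488761 to 101551955), had 12.9, 16.4 and 19.1 CPM with vehicle and 80.8, 97.4 and 124 CPM with AOA. Bard1, its obligate partner, had 6.35, 6.27 and 9.77 CPM with vehicle and 40.9, 44.9 and 50.3 CPM with AOA. In all 3 genes the groups were far apart, and AOA replicate 1 was the lowest of the AOA libraries. Brip1 rose 7.33-fold (log2 fold change 2.87, SE 0.15, adjusted p = 1.12e-05), Brca1 6.23-fold (2.64, SE 0.21, adjusted p = 2.43e-05) and Bard1 6.03-fold (2.59, SE 0.21, adjusted p = 2.59e-05), by edgeR. Brca2, which delivers the recombinase to single-stranded DNA, rose 3.17-fold, from 12.7 to 15.7 CPM with vehicle to 37.6 to 50.5 CPM with AOA. The smallest rise in the group was that of Palb2, the bridge between BRCA1 and BRCA2, at 2.10-fold (8.87 to 10.2 CPM against 19.4 to 21.3 CPM).

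The recombinase paralogs form complexes that stabilise the recombinase filament. Of their 5 genes 3 rose and 2 were not called, against 26.2% raised among all genes tested. Rad51b had 2.06, 2.09 and 2.33 CPM with vehicle and 10.7, 9.20 and 8.27 CPM with AOA, a 4.32-fold rise (log2 fold change 2.11, SE 0.23, adjusted p = 1.22e-04, edgeR). Xrcc2 had 5.32, 6.21 and 5.64 CPM with vehicle and 18.7, 19.7 and 19.4 CPM with AOA, a 3.36-fold rise (1.75, SE 0.17, adjusted p = 6.70e-05, edgeR). Rad51c, the paralog found in both paralog complexes, had 3.49, 3.99 and 4.07 CPM against 7.81, 6.87 and 9.08 CPM, a 2.05-fold rise (1.04, SE 0.22, adjusted p = 0.00400, edgeR). Vehicle libraries of these 3 genes lay close together and under every AOA library. Xrcc3, the partner of RAD51C, had 8.57, 9.0 and 6.35 CPM with vehicle and 12.5, 10.04 and 10.9 CPM with AOA (0.49, SE 0.21, adjusted p = 0.0752, edgeR), or 0.62 without vehicle replicate 2 (adjusted p = 0.0301). Rad51d, which sits beside XRCC2 in the other complex, had 35.5, 43.4 and 38.4 CPM with vehicle and 33.8, 30.8 and 32.3 CPM with AOA (-0.28, SE 0.14, adjusted p = 0.116, edgeR). Its AOA libraries lay below its vehicle libraries, a separation in the opposite direction to the other paralogs that did not pass the test.

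Among the 36, the largest rise outside resection was that of Rad51ap1, a DNA-binding cofactor of the recombinase (chromosome 6, 126923415 to 126939621), with 6.98, 6.27 and 7.82 CPM with vehicle and 87.2, 56.6 and 68.0 CPM with AOA. Rad54l, a motor protein that remodels DNA during strand exchange, had 6.35, 10.3 and 7.82 CPM with vehicle and 50.5, 52.3 and 53.6 CPM with AOA. Rad54b, its paralog, had 1.98, 2.79 and 3.47 CPM with vehicle and 16.5, 14.6 and 16.7 CPM with AOA. Groups were far apart for all 3, and AOA replicate 1 was the highest for Rad51ap1. Rad51ap1 rose 10.02-fold (log2 fold change 3.33, SE 0.20, adjusted p = 1.26e-05), or by 3.15 on the log2 scale without AOA replicate 1. Rad54l rose 6.36-fold (2.67, SE 0.19, adjusted p = 1.65e-05) and Rad54b 5.74-fold (2.52, SE 0.24, adjusted p = 5.77e-05), all by edgeR. In the gene models of GENCODE vM21, 35.8% of the exonic bases of Rad54b are also exonic in Fsbp on the same strand, so its counts are uncertain.

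All 5 genes of break sensing and resection rose, against 26.2% of all genes tested, but 4 of the 5 by less than 2-fold. Exo1, a nuclease for long-range resection (chromosome 1, 175880768 to 175911396), had 2.06, 6.72 and 3.15 CPM with vehicle and 41.7, 50.2 and 42.8 CPM with AOA. Vehicle replicate 2 lay above the mean of the other 2 vehicle libraries by 1.37 on the log2 scale, and even so lay far under every AOA library. Exo1 rose 11.2-fold (log2 fold change 3.48, SE 0.35, adjusted p = 7.95e-05, edgeR), the largest change among the 36, and by 4.11 on the log2 scale without vehicle replicate 2. Nbn, the signalling subunit of the MRN complex that senses broken ends, had 22.8, 26.2 and 25.3 CPM with vehicle and 50.0, 43.2 and 47.7 CPM with AOA (0.92, SE 0.14, adjusted p = 5.41e-04, edgeR). Rad50, the ATPase that tethers the ends, had 62.1, 62.0 and 63.9 CPM with vehicle and 78.5, 116 and 110 CPM with AOA (0.69, SE 0.16, adjusted p = 0.00583, edgeR). AOA replicate 1 was the low library for Rad50, and without it the log2 fold change was 0.85. Mre11a, the nuclease of the complex, rose 1.61-fold and Rbbp8, which encodes its activator CtIP, 1.53-fold, both without overlap between groups.

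Of the 6 genes that process joint DNA molecules, 4 rose, against 26.2% of all genes tested. Rmi2, a small subunit of the BLM dissolution complex, had 12.1, 8.43 and 9.82 CPM with vehicle and 49.0, 43.2 and 45.8 CPM with AOA, a 4.56-fold rise (log2 fold change 2.19, SE 0.17, adjusted p = 2.33e-05, edgeR). Eme1, the partner of the nuclease MUS81, had 5.87, 9.06 and 8.30 CPM with vehicle and 26.2, 29.1 and 31.7 CPM with AOA, a 3.73-fold rise (1.90, SE 0.20, adjusted p = 9.27e-05, edgeR). Blm, the helicase that dissolves crossed strands, had 20.5, 18.4 and 22.9 CPM against 51.2, 56.3 and 55.9 CPM, a 2.65-fold rise (1.40, SE 0.14, adjusted p = 7.62e-05, edgeR). None of the 3 had overlapping groups. Rmi1, the other accessory subunit of the BLM complex, rose 1.47-fold (44.5 to 47.1 CPM against 62.4 to 73.9 CPM). Mus81 itself had 15.3, 17.0 and 14.9 CPM with vehicle and 19.7, 15.6 and 17.6 CPM with AOA (0.17, 95% interval -0.20 to 0.53). Slx4, a scaffold for structure-specific nucleases, had 40.8, 43.7 and 33.6 CPM with vehicle and 41.6, 45.6 and 50.3 CPM with AOA (0.22, 95% interval -0.12 to 0.56). The groups overlapped for both genes. Rad18, the ligase that attaches ubiquitin to PCNA at stalled forks, had 16.2, 19.1 and 17.8 CPM with vehicle and 50.4, 44.2 and 43.4 CPM with AOA, a 2.60-fold rise without overlap (1.38, SE 0.14, adjusted p = 9.01e-05, edgeR).

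To compare levels between genes, CPM were divided by the deposited gene length to give RPKM (CPM per kilobase). How that length was defined is not known, so each rank is given also with the exonic bases of the GENCODE vM21 gene model, a choice made after the data were seen. Rad50 and Nbn, of the end-sensing complex, were among the 4 highest genes in both groups with either length, at 12.2 and 9.94 RPKM with vehicle and 19.7 and 18.9 RPKM with AOA. Exo1 was the lowest of the 36 with vehicle, at 0.722 RPKM, and reached rank 21 with AOA, at 8.16 RPKM, again with either length. Rad51ap1 moved from rank 16 (3.76 RPKM) to rank 1 (37.7 RPKM), or from rank 24 to rank 4 with exonic bases. Fance moved the other way, from rank 6 (9.40 RPKM) to rank 24 (6.83 RPKM), or from rank 7 to rank 25, and Fancc was the lowest of the 36 with AOA by either length (1.85 RPKM). Other ranks rested on the length. Rad51d went from ranks 13 and 30 with the deposited length to ranks 2 and 11 with exonic bases, in vehicle and AOA libraries respectively, and Ube2t from ranks 12 and 5 to ranks 22 and 24. Rbbp8 had ranks 1 and 2 (16.1 and 24.5 RPKM) with the deposited length, and ranks 9 and 14 (5.01 and 7.64 RPKM) with exonic bases. Across the genes, log2 fold change and log2 vehicle RPKM had a Pearson correlation of -0.61 and a Spearman correlation of -0.59 (n = 36 genes), given as a description, since both use the vehicle libraries.

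Ratios between the transcripts of proteins that act together were compared library by library. The length that divides the counts sets the level and the sign of such a ratio, but cancels from its difference between groups. AOA replicate 1 differed by gene length, as described below, which does not cancel for genes of unequal length. Its part in these ratios was not tested. For Brca1 and Bard1 the log2 ratio of RPKM was 0.84 ± 0.23 (SD, n = 3) with vehicle and 0.85 ± 0.16 with AOA, although both genes rose about 6-fold. Rad50 over Mre11a was 0.33 ± 0.06 and 0.32 ± 0.21, and Rad54l over Rad54b was 1.51 ± 0.37 and 1.64 ± 0.11. In these 3 pairs the libraries of the groups overlapped.

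For 5 pairs the 3 AOA libraries lay wholly on 1 side of the vehicle libraries. Mus81 over Eme1 went from 1.21 ± 0.29 to -0.56 ± 0.27 (SD, n = 3) on the log2 scale, a change of sign that was also present with exonic bases (0.68 to -1.09). Fancl over Ube2t went from 0.45 ± 0.29 to -0.52 ± 0.16, and with exonic bases from 1.63 to 0.65, without a change of sign. Rmi1 over Rmi2 went from 2.15 ± 0.22 to 0.51 ± 0.03. Fancd2 over Fanci went from -1.43 ± 0.15 to -0.70 ± 0.21, and Brca2 over Palb2 from -0.95 ± 0.25 to -0.36 ± 0.21 (-0.35 to 0.24 with exonic bases). Each of the 5 reached p = 0.1 in a two-sided exact permutation test, the smallest p that 3 against 3 libraries allow, and adjusted p = 0.2 over the 10 pairs compared. This test could not reach 0.05 with 3 libraries per group, so its p-values do not tell whether the ratios changed. The remaining pairs, Rad50 with Nbn (exact p = 0.4) and Rad51c with Xrcc3 (exact p = 0.2), had overlapping groups. Within mice 1, 2 and 3, Rad51c over Xrcc3 was higher in the AOA culture by 0.62, 0.63 and 0.37 on the log2 scale, 1 direction in all 3 animals, whereas Rad50 over Nbn differed by -0.80, 0.18 and -0.13.

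**Figure D3:**
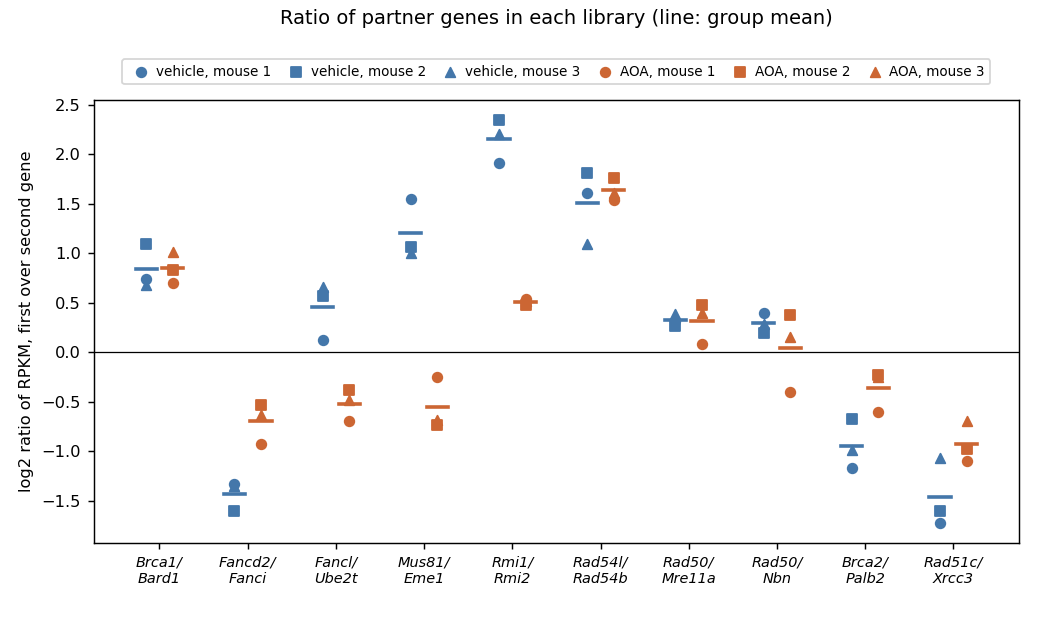
Log2 ratio of RPKM between the members of 10 pairs of partner genes in each of the 3 vehicle and 3 AOA libraries, with 1 point per library and a line at each group mean. The points of Mus81 over Eme1 fall from 1.01 to 1.54 with vehicle to -0.73 to -0.25 with AOA, and those of Brca1 over Bard1 overlap (0.68 to 1.09 and 0.70 to 1.01).

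Promoter sequences were examined because most of the genes rose together. RefSeq promoters of GRCm38.p6, 250 bases before to 50 after a gene's start, were at hand for 27 of the 36 genes, and were searched on both strands for letters known from cell cycle promoters. These were an E2F site (TTTCCCGC, TTTCGCGC, TTTGCCGC or TTTGGCGC), a CHR element (TTTGAA) and a CCAAT box (CCAAT). No E2F match shared a base with a CCAAT match. Shares are of genes, and a gene with more than 1 listed start counted once if any of its promoters held a match. An E2F match was present for 5 of 27 genes (18.5%), against 4.96% of the 9438 tested genes with a promoter and 2.60% of all 27025 genes with a promoter. Of the raised genes 4 of 18 had one (22.2%), and of those not called 1 of 9 (11.1%). A CCAAT box was present in 18 of 27 (66.7%), in the same share of raised and uncalled genes, against 43.0% of tested genes and 41.1% of all genes with a promoter. A CHR element was present in 3 of 27 (11.1%), against 14.3% and 20.2%, and in 3 of 18 raised (16.7%) and 0 of 9 uncalled genes. A match is a description of letters, not a bound site.

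The 6 stretches with an E2F match are shown because they lie upstream or near the start of both raised and uncalled genes, and they were chosen after the matches were seen. Positions count from the starts in the RefSeq promoter table. Each has 30 bases on the strand of its gene, 5′ to 3′, with the match in capitals, and a match that reads GCGGGAAA lies on the opposite strand. Bard1 (chr1:71103163-71103192, minus strand, 209 bases before the start), Brca2 (chr5:150522442-150522471, plus, 168 before), Rad51c (chr11:87404941-87404970, minus, 5 before, and chr11:87404477-87404506, minus, 11 after a second listed start) and Rmi1 (chr13:58402612-58402641, plus, 26 after a second listed start) rose. Fancg (chr4:43010335-43010364, minus, 52 before) was not called. The matches of Brca2, Fancg and Rmi1 and the second of Rad51c lie within the annotated span of the gene.
Bard1: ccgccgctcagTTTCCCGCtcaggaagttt
Brca2: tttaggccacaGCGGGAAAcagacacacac
Rad51c: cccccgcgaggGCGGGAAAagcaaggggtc
Rad51c, second start: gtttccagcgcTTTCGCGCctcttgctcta
Rmi1, second start: ccccgagggagTTTGGCGCgattggaggag
Fancg: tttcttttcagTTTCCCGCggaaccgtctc

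More than 1 CCAAT box lay upstream of Brip1, Ube2t, Xrcc3, Fancf, Blm, Fanca, Mre11a, Rad51ap1 and Rmi1, of which Xrcc3 (6 boxes) and Fancf (3 boxes) were not called. The first 3 are shown, again chosen after the matches were seen, as 2 raised genes and 1 uncalled gene with several boxes, in capitals (ATTGG on the opposite strand). Brip1 is chr11:86201216-86201363 (minus strand, 170 to 23 bases before the start), Ube2t is chr1:134962415-134962564 (plus, 150 to 1 before) and Xrcc3 is chr12:111813894-111814129 (minus, 250 to 15 before).
Brip1: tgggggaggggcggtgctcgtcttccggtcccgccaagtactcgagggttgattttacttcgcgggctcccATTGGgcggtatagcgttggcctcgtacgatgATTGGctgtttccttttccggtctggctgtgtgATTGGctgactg
Ube2t: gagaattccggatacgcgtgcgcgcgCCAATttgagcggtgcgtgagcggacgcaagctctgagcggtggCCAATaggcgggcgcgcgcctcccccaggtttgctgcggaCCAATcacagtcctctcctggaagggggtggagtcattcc
Xrcc3: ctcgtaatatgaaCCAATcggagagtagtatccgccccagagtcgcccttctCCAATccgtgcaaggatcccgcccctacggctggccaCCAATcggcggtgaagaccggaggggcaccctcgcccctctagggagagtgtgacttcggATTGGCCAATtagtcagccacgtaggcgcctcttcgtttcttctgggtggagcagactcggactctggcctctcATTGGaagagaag

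Other genes of recombination and the Fanconi pathway, 34 beyond the 36, gave 19 raised (55.9%), 4 lowered and a median log2 fold change of 0.64, where 26.2% of all genes tested were raised and 26.8% were lowered. Among those raised were Fignl1, an ATPase that acts on the recombinase (3.43, SE 0.22, adjusted p = 1.40e-05), Gen1, a junction resolvase (2.62, SE 0.16, adjusted p = 1.26e-05), and Dna2, a resection nuclease (2.56, SE 0.22), all by edgeR. Lowered were Rad52, a strand-annealing protein (-1.04, SE 0.19), Fbh1, a helicase that removes the recombinase (-0.82, SE 0.12), and Ercc4, a nuclease that also serves excision repair (-0.74, SE 0.13).

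Genes of end joining, the competing route for broken ends, gave 4 of 15 raised, 4 lowered and a median log2 fold change of -0.28. These shares (26.7% raised) are close to those of all genes tested, 26.2% raised and 26.8% lowered. Polq, the polymerase of the alternative end-joining route, rose by 2.58 (SE 0.19) and the Ku subunits Xrcc6 and Xrcc5 by 0.75 and 0.76. Polm, an end-joining polymerase, changed by -1.23 (SE 0.30), Dclre1c, the nuclease Artemis, by -0.89 and Paxx, a Ku-binding factor, by -0.67. Of 8 tested end-protection genes, which limit resection, 3 rose (Paxip1 1.26, Rnf168 1.11, Rif1 1.10) and Trp53bp1 was lowered (-0.56). In the BRCA1-A complex, which holds BRCA1 at ubiquitylated chromatin, Abraxas1 (0.71), Babam1 (0.68) and Brcc3 (0.55) rose while Uimc1 (-0.75) and Babam2 (-0.41) were lowered.

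Lists of routes that do not use a sister copy had median log2 fold changes of 0.63 (mismatch repair), 0.42 (base excision), 0.16 (nucleotide excision) and -0.06 (translesion synthesis), and their counts stand beside 26.2% raised and 26.8% lowered over all genes. Mismatch repair gave 5 of 7 raised and 0 lowered, also 0 at an unadjusted p under 0.05 (Pms2 0.83, Msh6 0.80, Pms1 0.73) with Mlh3 (-0.27) and Msh3 (-0.21) not called. Base excision gave 6 of 16 raised, with the glycosylases Ung (2.54) and Neil3 (2.35) and the endonuclease Apex1 (2.09) first, and 3 lowered, the glycosylases Neil2 (-3.61), Neil1 (-2.09) and Smug1 (-0.62). Nucleotide excision gave 7 of 18 raised (4 without vehicle replicate 1 or without AOA replicate 3), among them Gtf2h4 (0.95), Ercc8 (0.89) and Gtf2h5 (0.78), and 7 lowered, among them Xpa (-1.60), Uvssa (-1.17) and Ercc5 (-1.07). Translesion synthesis gave 2 of 9 raised (1 without vehicle replicate 1 and 4 without vehicle replicate 2), the polymerase gene Polh (1.77) and Ube2a (0.57), and 3 lowered, Poli (-0.80), Polk (-0.70) and Ube2b (-0.62).

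Cell cycle genes were raised beside the recombination genes. Genes among the 36 were first taken out of an S-phase and a G2/M list. Of the genes left, all 40 S-phase genes and 50 of 54 G2/M genes were raised by edgeR, against 26.2% of all genes tested. In either list 0 were lowered, also at an unadjusted p under 0.05, against 26.8% lowered among all genes by edgeR. The median log2 fold changes were 2.46 and 2.14. Of the 36 genes, 8 rose by more than the median of the reduced S-phase list: Exo1, Rad51ap1, Brip1, Rad54l, Brca1, Bard1, Fancd2 and Rad54b. The part of a different share of cells in S and G2 phase in these rises was not tested.

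**Figure D4:**
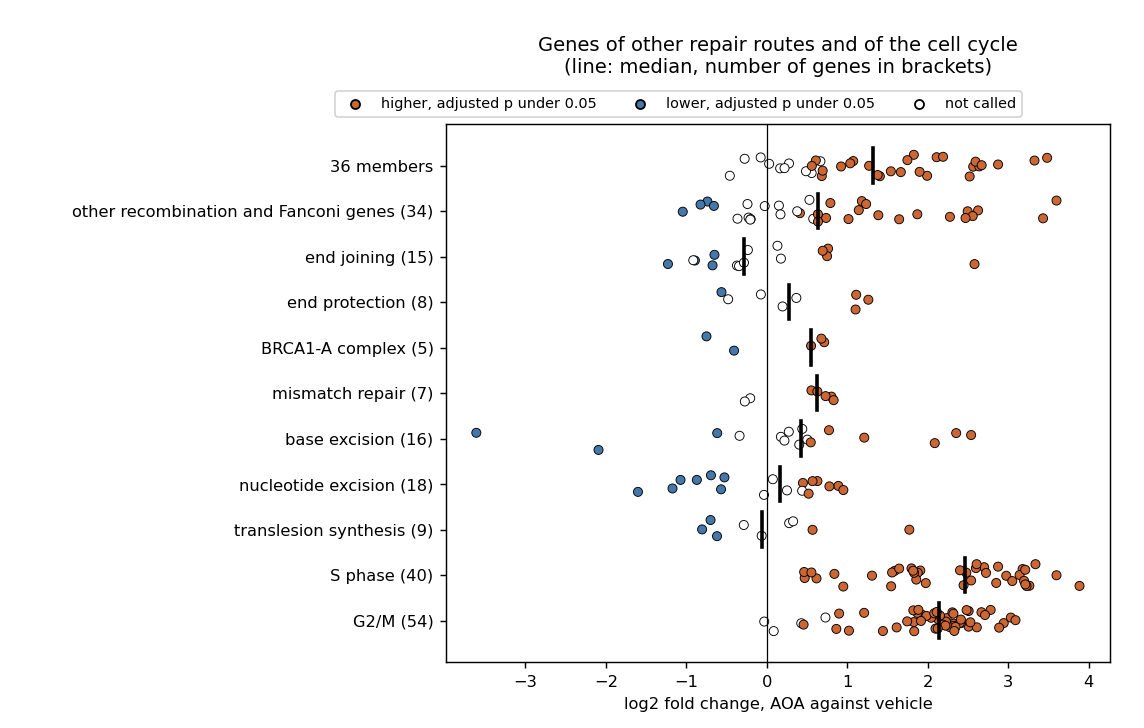
Log2 fold change of AOA-treated relative to vehicle-treated cells for the 36 genes and 10 other lists of repair and cell cycle genes, 1 point per gene, with fill for the edgeR result and a line at each median. The median of the 36 genes is 1.32, and the other medians run from -0.28 for end joining to 2.46 for S phase.

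AOA replicate 1 differed from AOA replicates 2 and 3 by gene length. Among the 36 genes, the log2 ratio of its CPM to the mean of the other 2 correlated with log2 length at -0.71 (Pearson and Spearman, n = 36 genes of the same 3 libraries), and over all 11759 tested genes at -0.48 (Pearson) and -0.50 (Spearman). It was the highest AOA library for 11 of the 18 shorter genes and for 3 of the 18 longer ones. The ratio was 0.69 for Ube2t, 0.66 for Fancb and 0.49 for Rad51ap1, and -0.52 for Rad50, -0.48 for Fancd2 and -0.45 for Brca1. The median length of the 36 genes was 3808 bases, and that of all genes tested was 2900 bases.

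**Figure D5:**
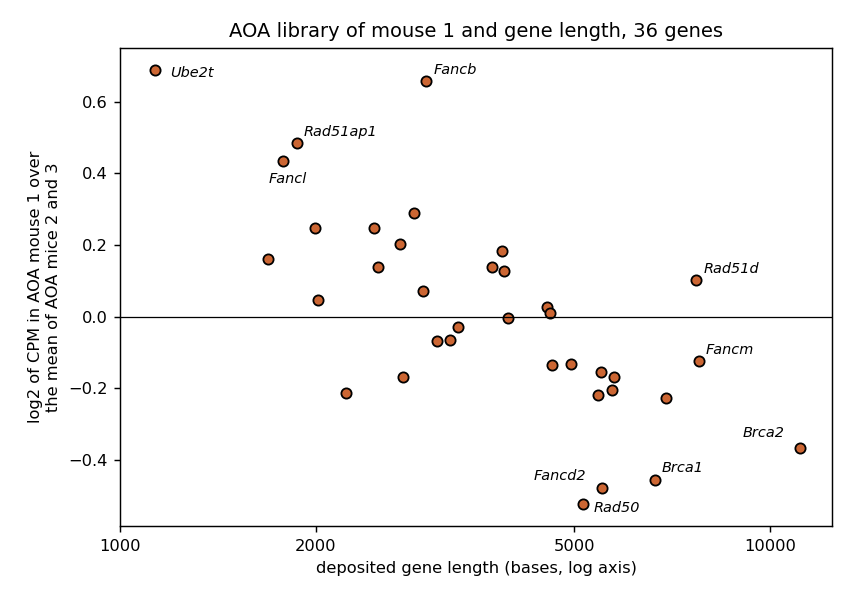
Log2 ratio of CPM in AOA replicate 1 to the mean of AOA replicates 2 and 3, against the deposited gene length in bases (log axis), for the 36 genes, 1 point per gene. Short genes such as Ube2t (0.69) lie high and long genes such as Brca2 (-0.37) lie low.

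Gene models of several of the 36 overlap exons of a neighbour on the opposite strand, by 10.5% (Fanca) to 18.6% (Fancc) of exonic bases in Fanca, Eme1, Fancl, Fancf, Rad54l, Fanci and Fancc. The libraries were stranded, but the strand setting of the counting is not known, so reads of such neighbours cannot be told apart from those of these genes.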

How the data were processed

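RNA of 6 cultures (3 vehicle, 3 AOA) was prepared as stranded mRNA libraries and sequenced as paired-end reads. Reads were aligned by the authors in STAR with its defaults. The deposited table holds raw counts per gene, from uniquely mapped reads, with an Entrez number, symbol and length. Per the submitters' processing notes, bcl2fastq, STAR, featureCounts, DESeq2 and mm10 were used. Their versions, the annotation, the strand setting, how length was defined and any filter behind the table were not given in the sources used here. In the table, 4 genes were at 0 in every library and 1 had no symbol.

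Differential expression was tested in edgeR 4.0.16 under R 4.3.3 (filterByExpr with minimum count 10, TMM, robust quasi-likelihood test, Benjamini-Hochberg adjustment over 11759 genes, threshold 0.05). CPM used TMM library sizes, and RPKM divided CPM by the deposited length, or by exonic bases in an alternative chosen after seeing the data. Alternatives were limma voom (limma 3.58.1), DESeq2 1.42.0, library sizes without TMM, RLE factors, thinning to 12881962 counts, no filter, the mouse as a replicate block, and each library left out. Per the labels, the same 3 donor mice gave both groups, which pairs the cultures, and deviations from group means correlated within animals with r of 0.0868, 0.189 and 0.194 across genes. P-values measure the spread between cultures. Steps were tested on simulated data.

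Members and lists were chosen with earlier results of these data known. All members are named. In each role, values per library are given for up to 3 called members with the largest absolute change, for every member not called, and for any called against most of its role. From other lists up to 3 called genes per direction are named, and every gene not called where at most 3 were not. The 4 uncalled genes of the G2/M list exceed that number, and the S and G2/M lists (Seurat 5.3.0, without members) are given as counts. Lists share genes: 2 of the other recombination genes, and Ung, also stand in the S-phase list. 1 gene of the comparison lists is counted but not reported by name. Promoters came from RefSeq (GRCm38.p6) and exon overlaps from GENCODE vM21. Base quality, duplicates and reads were not analysed here.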

Additional observations from a re-analysis of the deposited data

How the results depend on the processing

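Over 13 alternatives for each of the 36 genes, 455 of 468 results kept their direction and their side of the threshold, 10 passed the threshold only under the alternative, 0 were lost and 3 changed sign. The sign changes were in genes near no change: Fancc (-0.19 to 0.11 with 1 library left out, above 0 without vehicle replicate 2) and Fancg (-0.0021 after thinning, and -0.024 to 0.10 with 1 library left out, below 0 without AOA replicate 3). The 10 gains were in Fancl (DESeq2, total counts, no filter, replicate block, without vehicle replicate 3), Fancf (limma, without vehicle replicate 2), and Fance, Fancm and Xrcc3 (without vehicle replicate 2). Leaving out 1 library gave 26 to 29 members raised and 0 to 1 lowered, 2 to 4 raised in the Fanconi core (4 without vehicle replicate 2), and a median log2 fold change of 1.27 (without AOA replicate 1) to 1.35. It gave 4 to 8 raised genes of nucleotide excision (4 without vehicle replicate 1 or AOA replicate 3) and 1 to 4 of translesion synthesis (1 without vehicle replicate 1, 4 without vehicle replicate 2). Over all genes 4952 to 6796 were called. With the replicate block 6292 genes were called and 27 members raised, and among the 36 it changed the call of Fancl alone (log2 fold change 0.57, adjusted p = 0.0267). With exonic bases of GENCODE vM21 as length, an alternative chosen after the data were seen, the log2 ratios with AOA of Fancl over Ube2t (0.65) and Brca2 over Palb2 (0.24) changed sign, as the length enters them directly. The other causes were not tested. With 3 cultures per group, changes as small as those of Fancm or Slx4 could not be told from 0.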
